A study of Mus musculus with 4 samples.

Results

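The SoxB genes code for the transcription factors by which neural stem cells are usually recognised, and their transcripts were followed here in the single cells of 4 mouse neural stem cell (NSC) lines. The genes *Sox1*, *Sox2*, *Sox3*, *Sox21* and *Sox2ot* were looked up by name, and 4 of these 5 were found among the 27613 gene names of the tables. *Sox2ot*, a long noncoding transcript that spans the *Sox2* locus, was not analysed here. *Sox1*, *Sox2* and *Sox3* form the SoxB1 subgroup, whose proteins activate transcription and hold neural progenitors in an undifferentiated state. *Sox21* belongs to the SoxB2 subgroup, whose proteins bind similar DNA sites and repress transcription, and its protein is known for counteracting the SoxB1 proteins when progenitors leave that state. SoxB proteins bind DNA through a high mobility group (HMG) box, usually next to a partner factor such as a POU protein.

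All 4 lines were derived from 129/Sv epiblast stem cells (EpiSCs) and grown with EGF and FGF2, each at 10 ng/ml. XN4 and XN1 also received 10 µM XAV939, a tankyrase inhibitor that lowers Wnt signalling, KN1 received no Wnt agent, and CN4 received 2 µM CHIR99021, a GSK3 inhibitor that raises Wnt signalling. The XAV939 came from a different supplier for XN4 than for XN1, and crystals of the XN1 supplier's compound appeared in the medium, so the 2 XAV lines differ in more than their derivation. XN4 and CN4 came from another derivation experiment than XN1 and KN1. Each line was represented by 1 library, so the spread between cultures is unknown, and line, agent, library and derivation cannot be told apart. The cells had been stored in a preservative for up to 2 weeks before capture on a BD Rhapsody cartridge.

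The normalized tables held 3927 cells of XN4, 3905 of XN1, 3975 of KN1 and 3448 of CN4, with median depths of 7796, 4637, 5862 and 6572 reads. Larger tables of all cells were used for XN4 (8741 cells, median depth 12615 reads), XN1 (14452 cells, 5981.5 reads) and CN4 (18157 cells, 9173 reads). A transcript was called captured in a cell when at least 1 of its reads was there, and its level was given as reads per 10000 reads of the line. KN1 cells carried a median of 833 genes against 2257 to 2824 in the other lines, so that cell fractions in KN1 are low for a given level. Between 14 and 21 cell barcodes were shared by any 2 of the normalized tables, and between 139 and 320 by any 2 of the larger tables.

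The label of neural stem cells was compared with 16 neural progenitor markers. Of these, 14 were captured in at least 10% of XN1 cells, 11 in KN1, 15 in CN4 and 6 in XN4, and *Hes5*, *Fabp7* and *Pou3f2* were among those not listed in the XN4 table. A list of 12 mesenchyme genes summed to 83.8 reads per 10000 in XN4 and to between 0.218 and 2.03 in the other lines, and the collagen gene *Col3a1* was captured in 97.8% of XN4 cells. Of this list, 8 genes were captured in at least 10% of XN4 cells, against 2 in XN1, 0 in KN1 and 1 in CN4. *Col1a2* and *Thy1* went the other way, reaching 10% in XN1 but not in XN4. The progenitor list summed to 18.8 reads per 10000 in XN4 and to 64.5, 80.1 and 129 in the XN1, KN1 and CN4 tables. Of the XN4 sum, 13.3 came from *Vim*, a filament gene that mesenchyme also expresses. The markers therefore went with the label in XN1, KN1 and CN4 and went against it in the library labelled XN4, which is the one meant by XN4 throughout. Whether this library holds the cells of its label cannot be told from these values, and every ratio to XN4 below is a ratio to it.

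The 4 genes are each made of 1 exon and lie apart in the genome (GRCm38, with annotation from a GENCODE release, M21, that is later than the M19 used by the authors). *Sox2* is at chr3:34650405-34652461 on the + strand, inside the span of *Sox2ot*, which runs from 34104270 to 34682619 on the same strand. *Sox1* is at chr8:12395295-12400126 on the + strand and lies inside *Sox1ot* of the same strand. *Sox3*, at chrX:60891366-60893430 on the − strand, overlaps no other annotated gene. *Sox21* is at chr14:118233232-118237030 on the − strand, and *Gm4675* of the opposite strand covers its upstream end. Introns were counted in XN4, XN1 and CN4, the setting for KN1 is not given in the sources used here, and how reads of *Sox1* and *Sox2* were divided from those of the overlapping transcripts was not tested.

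A coding stretch over the HMG box is shown because reads could be placed on the wrong member there. Its ends were set by the first and last of the longest runs that any 2 of the genes share, not by an annotated box. It covers 261 bases (87 codons) of each gene, read from the genome in the direction of transcription, with capitals for the 55 bases that are not the same in all 4 genes.
Sox1, chr8:12396511-12396771: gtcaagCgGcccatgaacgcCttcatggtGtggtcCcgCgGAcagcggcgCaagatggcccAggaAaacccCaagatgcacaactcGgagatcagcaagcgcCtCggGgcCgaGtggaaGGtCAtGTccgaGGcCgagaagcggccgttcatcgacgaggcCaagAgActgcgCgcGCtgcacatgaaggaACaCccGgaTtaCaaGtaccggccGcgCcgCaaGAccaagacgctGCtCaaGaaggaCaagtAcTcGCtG
Sox2, chr3:34650542-34650802: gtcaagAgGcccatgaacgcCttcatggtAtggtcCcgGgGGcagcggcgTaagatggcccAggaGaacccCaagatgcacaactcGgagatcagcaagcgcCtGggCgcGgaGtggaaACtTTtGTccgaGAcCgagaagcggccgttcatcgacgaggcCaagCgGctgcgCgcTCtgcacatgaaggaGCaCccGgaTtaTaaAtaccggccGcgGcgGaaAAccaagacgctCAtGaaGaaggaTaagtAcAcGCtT
Sox3, chrX:60892741-60893001: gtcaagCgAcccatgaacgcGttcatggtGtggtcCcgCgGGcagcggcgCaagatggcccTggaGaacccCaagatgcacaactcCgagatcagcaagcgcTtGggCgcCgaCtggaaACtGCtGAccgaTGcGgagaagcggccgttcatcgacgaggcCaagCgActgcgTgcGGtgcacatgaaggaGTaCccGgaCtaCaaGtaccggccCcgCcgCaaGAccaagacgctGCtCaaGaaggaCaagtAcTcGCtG
Sox21, chr14:118235354-118235614: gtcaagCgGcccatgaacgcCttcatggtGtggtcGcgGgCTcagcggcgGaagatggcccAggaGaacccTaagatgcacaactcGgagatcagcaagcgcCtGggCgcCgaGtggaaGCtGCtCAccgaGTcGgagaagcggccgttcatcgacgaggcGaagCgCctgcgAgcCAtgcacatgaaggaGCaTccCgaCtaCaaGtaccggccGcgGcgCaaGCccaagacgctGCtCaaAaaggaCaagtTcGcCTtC
The other 206 bases were the same in all 4. Identity ran from 85.4% (*Sox2* and *Sox21*) to 90.8% (*Sox1* and *Sox3*). Over the whole transcripts the longest run that any 2 of the genes shared without a mismatch was 28 to 45 bases long, shorter than the 150 bases of a read, and lay in the coding part at least 1375 bases from the 3′ end of either transcript. The 3′ parts, where poly(A)-primed reads gather, shared no longer run.

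The 250 bases before the RefSeq start, which for *Sox2* lies upstream of the GENCODE start given above, are shown for *Sox2* and *Sox21*, the only SoxB genes listed in the normalized tables of all 4 lines.
Sox2, chr3:34649745-34649994, + strand: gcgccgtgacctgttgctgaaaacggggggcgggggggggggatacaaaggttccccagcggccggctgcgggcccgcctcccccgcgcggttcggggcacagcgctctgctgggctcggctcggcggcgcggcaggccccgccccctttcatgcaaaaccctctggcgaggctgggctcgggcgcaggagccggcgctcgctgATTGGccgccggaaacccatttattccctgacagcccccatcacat
Sox21, chr14:118237031-118237280, − strand: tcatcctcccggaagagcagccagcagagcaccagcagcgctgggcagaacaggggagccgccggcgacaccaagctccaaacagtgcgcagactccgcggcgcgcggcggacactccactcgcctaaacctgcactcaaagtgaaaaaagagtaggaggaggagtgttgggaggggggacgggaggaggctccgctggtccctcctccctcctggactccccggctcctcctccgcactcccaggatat
Windows of 300 bases, from 250 before to 50 after a start, were searched on both strands for ATTGTT (a core of SOX sites), ATGCAAAT (the POU octamer), CCAAT and TATAAA. The *Sox2* window held CCAAT on the opposite strand, which reads ATTGG on the strand shown (capitals above), at 46 bases before the RefSeq start. The *Sox21* window held none of the 4 motifs. The *Sox1* window, which lies mostly inside the annotated gene and is not shown, held the octamer at +19 and CCAAT at -237 from its RefSeq start. Of 32851 such windows from RefSeq (GRCm38.p6), 37.4% held CCAAT, 10.7% held ATTGTT, 1.74% held the octamer and 13.6% held TATAAA. The stretches shown hold 27 CpG in *Sox2* and 17 in *Sox21*, against a median of 6 and a 95th percentile of 31 over all promoters.

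*Sox2*, the SoxB gene most widely used to mark neural stem cells, was the most abundant member in XN1, KN1 and CN4. In the normalized tables its level was 0.0125 reads per 10000 for XN4 (exact 95% Poisson interval 0.00935 to 0.0164), 3.05 for XN1 (2.97 to 3.13), 1.17 for KN1 (1.13 to 1.21) and 5.84 for CN4 (5.75 to 5.94). The 4 levels therefore ran in the order XN4, KN1, XN1 and CN4, and no 2 neighbours overlapped within counting error. KN1 levels were unlike the others in general. Between KN1 and another line 42.1% to 46.9% of all genes tested were at least 2-fold apart, against 17.6% to 33.1% among the other lines. What this does to the place of KN1 in the order was not tested. Intervals throughout cover counting error alone. Those of levels and of their ratios are too narrow, since reads rather than molecular identifiers were counted. In the larger tables *Sox2* was captured by 0.561% of the XN4 cells (exact binomial interval 0.415 to 0.740), 63.5% of those of XN1 (62.7 to 64.3) and 85.9% of those of CN4 (85.4 to 86.4). In KN1 the cell fraction was 13.9% (12.8 to 15.0), with 5.84 reads in a capturing cell on average.

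*Sox3*, another SoxB1 activator, which is X-linked, was present in the same lines at a lower level. It reached 0.959 reads per 10000 in XN1 (0.916 to 1.004), 0.533 in KN1 (0.506 to 0.561) and 1.95 in CN4 (1.895 to 2.01), while the XN4 table of normalized values lacked it. In the larger XN4 table, 1 read was found in 1 of 8741 cells. The cell fractions were 25.3% in XN1 (24.6 to 26.0), 6.14% in KN1 (5.41 to 6.93) and 48.2% in CN4 (47.5 to 49.0). *Sox3* thus had the same order over the lines as *Sox2*.

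*Sox21*, the SoxB2 repressor, was captured about as often as *Sox3* in XN1 and CN4, less often in KN1 and in more cells in XN4. XN4 had 0.0130 reads per 10000 (0.00977 to 0.0170), XN1 0.758 (0.720 to 0.798), KN1 0.305 (0.285 to 0.326) and CN4 1.62 (1.57 to 1.67). In XN1 the 2 genes were captured in the same number of cells, 3656 of 14452, and in CN4 *Sox21* was captured in 51.0% (50.3 to 51.8). In XN4 it was captured in 0.709% of cells (0.544 to 0.908) and in KN1 in 4.30% (3.69 to 4.98). As for *Sox2*, the levels of the 4 lines did not overlap within counting error.

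*Sox1*, the SoxB1 gene whose expression is the most closely tied to the neural plate, was abundant in CN4 and near the limit of the counts in the other lines. CN4 held 0.682 reads per 10000 (0.648 to 0.716) and KN1 held 0.0250 (0.0195 to 0.0317). In the larger tables it was captured in 30.1% of CN4 cells (29.4 to 30.8), whereas 4 of 8741 XN4 cells and 4 of 14452 XN1 cells held it, with 6 and 4 reads. XN1 was second to CN4 in the other 3 genes, and its place beside KN1 in *Sox1* cannot be told from so few cells. The KN1 reads came from 15 of 3975 cells. These cell counts in XN4, XN1 and KN1 are too low to tell expression from stray reads, which was not tested.

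**Figure D1:**
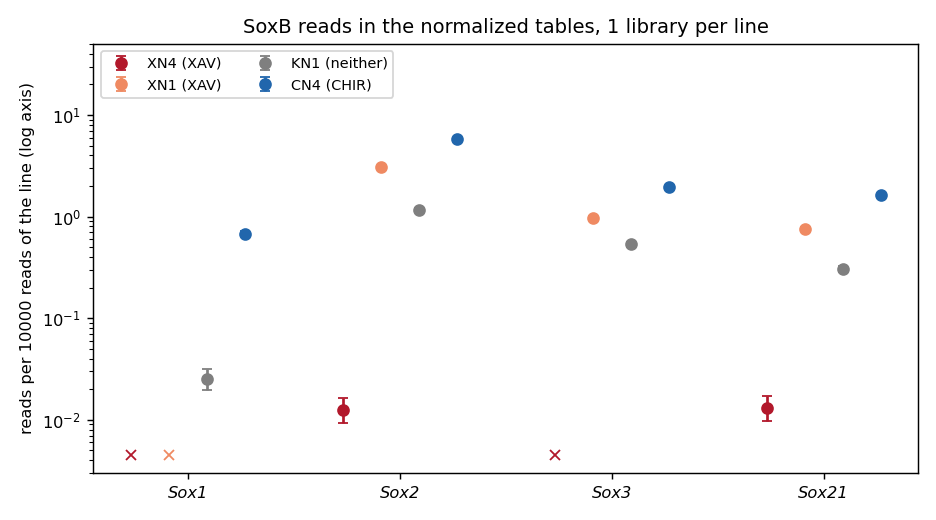
Reads per 10000 of each SoxB gene in the normalized table of each line, on a log axis, with exact 95% Poisson intervals; a cross marks a gene that the table does not list. *Sox2*, *Sox3* and *Sox21* stand in the order KN1, XN1, CN4 (for *Sox2* 1.17, 3.05 and 5.84), with XN4 near 0.01 or not listed.

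Per kilobase of the annotated transcript, *Sox2* had the highest level in XN1, KN1 and CN4, as it had before division by length. In CN4 the level was 2.84 reads per 10000 per kb for *Sox2*, 0.945 for *Sox3*, 0.426 for *Sox21* and 0.141 for *Sox1*. XN1 and KN1 had the same order for the genes listed. In XN4 the level per kb was 0.00609 for *Sox2* and 0.00342 for *Sox21*, an order that came from the division, since *Sox21* had the more reads (54 against 52). Since reads gather at the 3′ end, a level per kb understates long transcripts such as *Sox1* and *Sox21*, so levels of different genes are only roughly comparable on either scale.

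The lines were compared by the ratio of levels, with 2-fold as the size called. Against XN4, *Sox2* was 243 times as high in XN1 (interval 185 to 326), 93.2 times in KN1 (70.9 to 125) and 467 times in CN4 (356 to 625). For *Sox21* the ratios were 58.3 (44.4 to 78.0), 23.5 (17.8 to 31.5) and 125 (95.3 to 166). Both genes that XN4 lists, 2 of 2, were thus called higher in each of the 3 lines, where 13.8% (XN1), 21.7% (KN1) and 15.0% (CN4) of all genes tested were called higher than in XN4. Both had passed the filter (capture in at least 1% of the cells of either line) through the line where they were high, and *Sox1* and *Sox3* had no XN4 value, so these counts describe the lines and are no measure of the family. The XN4 values rest on 52 reads in 22 cells for *Sox2* and 54 reads in 29 cells for *Sox21*. In the larger tables *Sox1* was 1325 times as high in CN4 as in XN4 (608.5 to 3611). *Sox3* in XN1 stood against the single XN4 read at a ratio of 10644 with an interval from 1910 to 420457.

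Among the 3 lines with abundant SoxB transcripts the differences were smaller. CN4 against KN1 gave 27.2 for *Sox1* (21.4 to 35.2), 5.01 for *Sox2* (4.82 to 5.20), 5.31 for *Sox21* (4.92 to 5.73) and 3.66 for *Sox3* (3.45 to 3.89). All 4 were called higher in CN4, where 21.4% of all genes were, with *Sox1* again past the filter through CN4. XN1 exceeded KN1 2.61-fold in *Sox2* (2.501 to 2.73) and 2.48-fold in *Sox21* (2.28 to 2.71), and 1.80-fold in *Sox3* (1.68 to 1.93), so that 2 of 3 were called, where 23.0% of all genes were called higher in XN1. CN4 exceeded XN1 1.92-fold in *Sox2* (1.86 to 1.98), 2.14-fold in *Sox21* (2.01 to 2.27) and 2.03-fold in *Sox3* (1.93 to 2.15), again 2 of 3, where 8.33% were called higher in CN4. These last ratios lay at the size called, and in the larger tables they were 1.84, 1.95 and 1.82. There the call was reached by 1 of 4 members, *Sox1* with its 4 XN1 reads (1319, 515 to 4841), where 9.42% of all genes were called higher in CN4. Here too *Sox1* had passed the filter through CN4, so its call describes the lines and is no measure of the family.

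Deeper cells capture more transcripts, so the cell fractions were also taken after thinning each cell to 3200 reads, which left out 543 cells of XN4, 776 of XN1, 579 of KN1 and 290 of CN4. *Sox2* was then captured in 0.236% of XN4 cells, 53.6% of XN1, 11.98% of KN1 and 72.8% of CN4. The order of the lines was the same for *Sox21*, with 0.325%, 18.3%, 3.45% and 34.3%. *Sox3* was captured in 19.05% of XN1, 5.04% of KN1 and 33.6% of CN4 cells, and *Sox1* in 0.324% of KN1 and 16.1% of CN4 cells. Thinned KN1 cells still held a median of 765 genes against 1650 to 1844 in the other lines, so that its cell fractions are not comparable with theirs even at this depth.

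**Figure D2:**
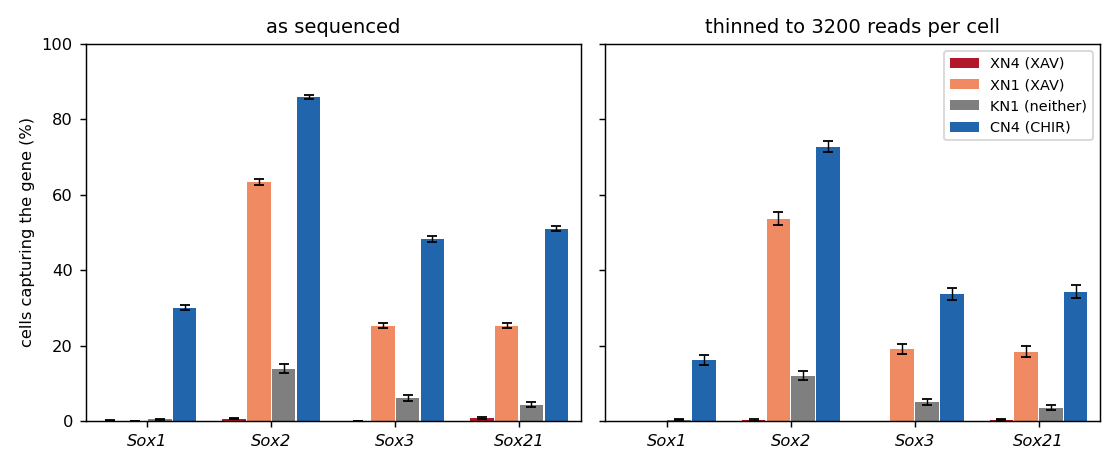
Percentage of cells capturing each SoxB gene in each line, as sequenced (left, larger tables except for KN1) and with every cell of the normalized tables thinned to 3200 reads (right), with exact 95% binomial intervals. *Sox2* stands at 85.9% (CN4) and 63.5% (XN1) on the left and at 72.8% and 53.6% on the right, where the table as well as the depth differs.

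With the cells of a line ordered by total reads and divided into 5 equal bins, the members did not behave alike. These levels are on the scale of the larger tables, whose totals include the ribosomal protein and mitochondrial genes, and are lower than the normalized levels above. In CN4 *Sox2* was captured in 67.8% of the shallowest bin and 96.9% of the deepest, and its level was 4.10 and 4.62 reads per 10000. The level of *Sox3* was 2.10 reads per 10000 in the shallowest bin of CN4 and 1.07 in the deepest, while its cell fraction went from 38.3% to 58.4%. *Sox21* went from 1.27 to 1.11 and *Sox1* from 0.493 to 0.572 reads per 10000 over the same bins. *Sox3* was thus the member whose share of the reads differed most between shallow and deep CN4 cells. In XN1 the shallowest and deepest bins held 0.788 and 0.681 reads per 10000 of *Sox3*, 0.687 and 0.551 of *Sox21*, and 2.28 and 2.52 of *Sox2*.

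Most CN4 cells captured several SoxB genes, and most KN1 and XN4 cells captured none. In CN4, 4.78% of cells captured none of the 4 genes, 21.2% captured 1, 36.4% captured 2, 29.3% captured 3 and 8.37% (1520 cells) captured all 4. In XN1 the fractions for none, 1, 2 and 3 genes were 22.8%, 45.5%, 26.6% and 5.11%, and 1 cell captured all 4. In KN1, 78.2% captured none and 19.2% captured 1, and in XN4, 98.8% captured none. After thinning, the fraction with none was 10.8% in CN4 and 30.9% in XN1, so that a cell without SoxB reads need not be a cell without SoxB transcripts.

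**Figure D3:**
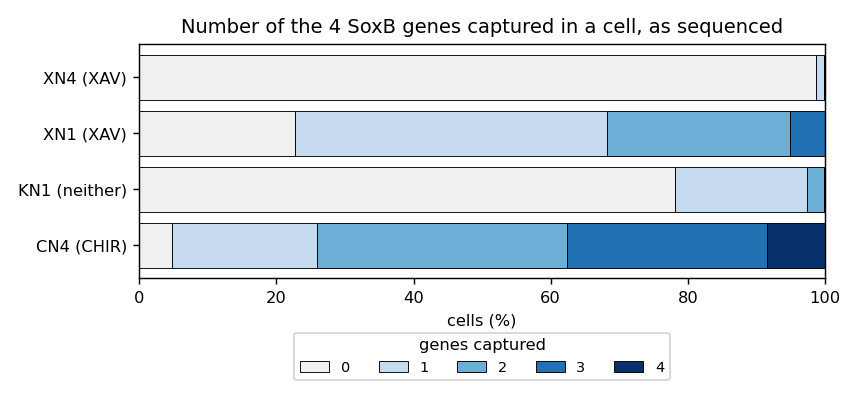
Stacked bars of the percentage of cells of each line that captured 0, 1, 2, 3 or 4 SoxB genes, as sequenced. CN4 cells most often captured 2 (36.4%), XN1 cells 1 (45.5%), and KN1 and XN4 cells none (78.2% and 98.8%).

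Among the SoxB1 genes, the commonest states of CN4 cells were *Sox2* alone (29.2%) and *Sox2* with *Sox3* (28.9%), followed by *Sox1* with *Sox2* (14.9%) and all 3 (12.9%). *Sox3* without the others was found in 5.43% and *Sox1* without the others in 1.24% of CN4 cells. *Sox21* was captured in 25.3% of the CN4 cells with no SoxB1 read, 48.5% of those with *Sox2* alone and 64.8% of those with all 3, which includes the effect of depth. In thinned CN4 cells *Sox21* was captured in 36.6% of cells with *Sox2* and 27.9% of cells without it, and *Sox1* in 18.1% and 10.8%. *Sox3* was at 32.7% of thinned cells with *Sox2* (30.8 to 34.7) and 36.1% of those without (32.9 to 39.4), with overlapping intervals. In thinned XN1 cells *Sox21* was likewise at 20.6% with *Sox2* and 15.7% without it, and *Sox3* at 17.3% (15.5 to 19.2) and 21.1% (19.02 to 23.3), where the intervals just overlapped. In thinned KN1 cells *Sox3* was at 7.13% with *Sox2* (4.82 to 10.1) and 4.75% without it (4.02 to 5.58), again with overlapping intervals. *Sox21* was at 5.16% with *Sox2* (3.22 to 7.78) and 3.21% without it (2.61 to 3.91) in KN1, with overlapping intervals, so that its share was the higher one beside *Sox2* in all 3 lines while that of *Sox3* was not.

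Pairs were then compared with the number of cells expected if 2 genes were captured independently among cells of like depth (20 strata of total reads). In CN4, *Sox1* and *Sox21* were found together in 3379 cells, 1.11 times the expected number (1.08 to 1.15), *Sox2* and *Sox21* 1.04 times (1.02 to 1.06), and *Sox1* and *Sox2* 1.03 times (1.004 to 1.06). *Sox1* and *Sox3* were together in 2531 cells, 0.908 times the expected number (0.873 to 0.944). *Sox3* with *Sox2* (0.990, 0.968 to 1.01) and with *Sox21* (0.995, 0.967 to 1.02) had intervals that held 1. The Poisson interval does not use the numbers of cells capturing each gene, so it is too wide where both are widely captured. In the normalized cells, *Sox2* and *Sox3* capture correlated within strata at -0.0502 in CN4 (rank 9498 of 9604 from the top) and -0.0437 in XN1 (rank 8935 of 9000). For *Sox3* and *Sox21* the correlations were -0.00973 and -0.00622. When capture needed at least 2 reads, *Sox2* and *Sox3* fell below the expected number, at 0.966 in CN4 (0.937 to 0.996) and 0.899 in XN1 (0.833 to 0.969). Over the cells of the normalized table alone, an alternative chosen after seeing the data, the CN4 ratios of *Sox2* and *Sox21* (1.04, 0.991 to 1.097) and of *Sox1* and *Sox2* (1.04, 0.969 to 1.11) had intervals that held 1. In XN1 the ratio was 1.09 for *Sox2* and *Sox21* (1.05 to 1.13), 0.982 for *Sox2* and *Sox3* (0.943 to 1.02) and 0.991 for *Sox3* and *Sox21* (0.930 to 1.05). The pair *Sox2* and *Sox21* was thus above the expected number in both lines over all cells, and no pair of *Sox3* was above it in either.

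In KN1 the numbers were small. *Sox3* and *Sox21* were together in 23 cells, 1.60 times the expected number (1.01 to 2.40), *Sox2* and *Sox21* in 45 cells, 1.37 times (0.996 to 1.83), and *Sox2* and *Sox3* in 44 cells, 1.03 times (0.752 to 1.39). The interval of *Sox3* and *Sox21* held 1 with strata of genes detected (1.49, 0.944 to 2.23) and with at least 2 reads (1.35, 0.718 to 2.31). That of *Sox2* and *Sox21* lay above 1 with 5 strata (1.45, 1.06 to 1.94) and with 50 (1.39, 1.01 to 1.86), so the KN1 pairs depend on these settings.

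**Figure D4:**
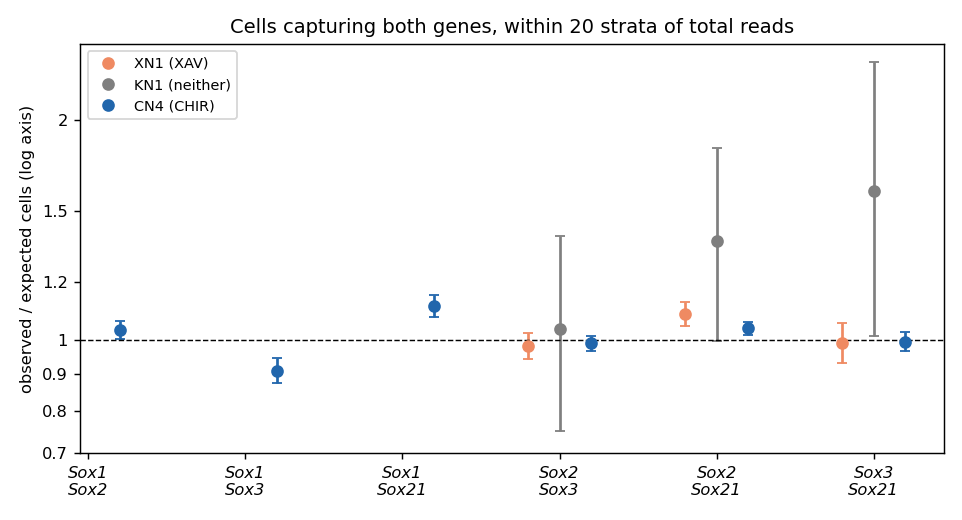
Observed over expected number of cells capturing both genes of a SoxB pair in XN1, KN1 and CN4, on a log axis, for pairs seen in at least 20 cells, with exact 95% Poisson intervals. *Sox1* with *Sox21* in CN4 (1.11) and *Sox2* with *Sox21* in XN1 (1.09) lie above 1, and *Sox1* with *Sox3* in CN4 (0.908) lies below.

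The lines were growing when the cells were taken, so the SoxB genes were set against the cell cycle. Thinned cells with reads of at least 3 of 12 G2-M genes (such as *Mki67* and *Top2a*) were compared with cells that had none, a range of a score rather than a cell type. In CN4 the cell fractions in the 1742 cells with and the 616 cells without such reads were 37.3% and 29.9% for *Sox21*, 35.5% and 29.1% for *Sox3*, and 18.1% and 13.1% for *Sox1*, with intervals that did not overlap. *Sox2* was captured in 75.9% and 71.9%, with overlapping intervals. In CN4 3 of 4 members were thus higher in cells with G2-M reads, where 10.3% of all genes were.

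In XN1, *Sox3* was captured in 22.6% of the 828 cells with G2-M reads and 16.7% of the 1437 cells without, while *Sox2* (53.9% and 53.4%) and *Sox21* (16.18% and 18.998%) had overlapping intervals, so that 1 of 3 was higher, where 15.5% of all genes were. In KN1, *Sox21* was captured in 4.55% and 2.14%, and the other 3 had overlapping intervals, so that 1 of 4 was higher, where 23.6% of all genes were and 0.506% were lower, with a median difference over all genes of 1.29 percentage points. In XN4 0 of 2 was higher, where 17.8% of all genes were. The shares of members in XN1 and KN1 rest on 1 gene each and are too small to set against the background.

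With 11 S-phase genes in place of the G2-M genes, *Sox3* was the member that was higher with non-overlapping intervals, and it was so in XN1, KN1 and CN4. Its cell fraction was 26.0% with and 17.1% without S-phase reads in XN1, 13.6% and 3.57% in KN1, and 38.5% and 27.8% in CN4. This was 1 of 3, 1 of 4 and 1 of 4 members, where 13.8%, 14.0% and 11.0% of all genes were higher. In KN1 the comparison as a whole was shifted, with 0.188% of all genes lower and a median difference of 1.66 percentage points, so the KN1 values of *Sox3* are not equal in weight to those of XN1 and CN4. *Sox21* in CN4 turned, with 31.3% of cells with and 35.2% of cells without S-phase reads and overlapping intervals. *Sox2* in XN1 was at 48.7% with and 55.1% without. *Sox3* in XN1 and CN4 was thus apart by either list, and the other members apart by G2-M reads had overlapping intervals by S-phase reads.

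**Figure D5:**
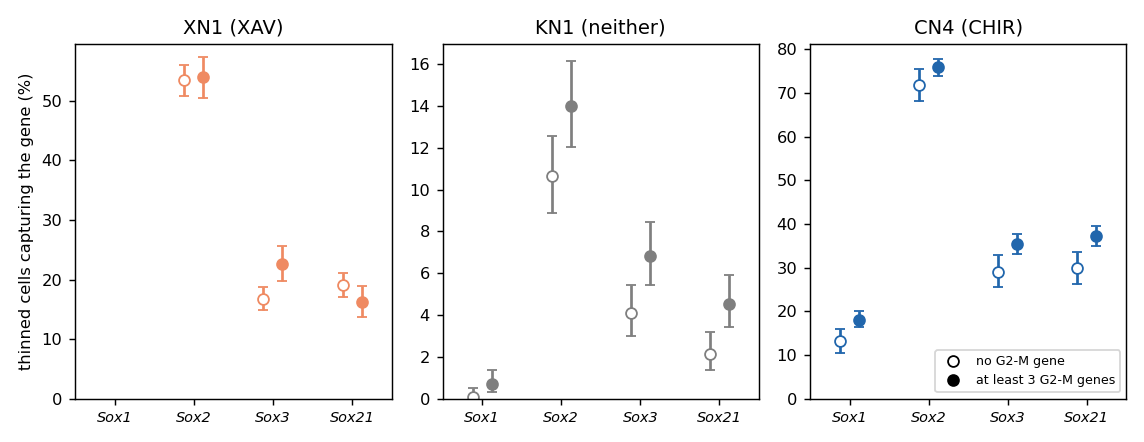
Percentage of thinned cells capturing each SoxB gene among cells with no G2-M gene (open) and with at least 3 (filled) in XN1, KN1 and CN4, with exact 95% binomial intervals and a separate vertical scale for each line. In CN4 *Sox1*, *Sox3* and *Sox21* are apart (37.3% against 29.9% for *Sox21*), and in XN1 *Sox3* is (22.6% against 16.7%).

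The genes whose capture went most with that of each member were listed within each line, after the mean of each depth stratum was taken off, among 9000 genes (XN1), 5585 (KN1) or 9604 (CN4). These correlations are over cells of 1 library, are weak and are given as descriptions. The lists depend on the measure, since 19 of the 45 highest genes were also among the highest by a Pearson correlation of the natural log values, and 1 of 5 was for *Sox21* in CN4 and for *Sox2* in XN1. In CN4, *Sox3* went most with *Dll1* (0.214), *Ets1* (0.170), *Prss23* (0.167), *Dll3* and *Nrp2* (0.165 each), of which *Dll1* and *Dll3* code for Notch pathway ligands, and least with *Pcp4l1* (-0.24), *Pltp* (-0.19) and *Vldlr* (-0.19). In XN1, *Sox3* was nearest to *Mcm2* (0.109) and *Dnmt1* (0.104), which act at DNA replication, *Tnc* and *Nop56* were also among its nearest genes, and *Apoe* (-0.11) and *Hist1h1c* (-0.10) were among the farthest. *Mcm2* is also in the S-phase list.

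The other members had different neighbours. *Sox2* and *Sox21* were each other's nearest gene in XN1 (0.0903), with *Abca1*, *Atp1b2*, *Cbx5* and *Txnip* next for *Sox2*, and *Tox3*, *Sox8*, *Pou3f4* and *Sall1* next for *Sox21*. In CN4, *Sox2* went with *Rgma* (0.107), the POU factor gene *Pou3f2* (0.106), *Metrn*, *Sox21* (0.101) and *C130071C03Rik*. *Sox21* in CN4 went with *Pou3f2* (0.125) and with *Cdca8*, *Cenpe*, *Fam83d* and *Ckap2l*, of which *Cdca8* and *Cenpe* act in mitosis and *Cenpe* is in the G2-M list. *Sox1* in CN4 went with *Rgma* (0.117), the Hedgehog receptor gene *Ptch1* (0.103), *Aspm*, *Mpp5* and *Tox3*.

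Some genes recurred at the low end. *Spry4*, which codes for an inhibitor of receptor tyrosine kinase signalling, was among the 3 lowest for *Sox21* in XN1 (-0.079) and in CN4 (-0.15) and for *Sox2* in CN4 (-0.11). *Klf10* was the lowest for both *Sox2* (-0.073) and *Sox21* (-0.079) in XN1 and among the lowest for *Sox2* in CN4 with *Myc*. The remaining low genes were *1500015O10Rik* and *Stx17* for *Sox2* and *Gadd45a* for *Sox21* in XN1, and in CN4 *Epn2* and *Inka2* for *Sox21* and *Fgf1*, *Epn2* and *Kcnc1* for *Sox1*. In KN1, *Sox2* went with *Nde1* (0.0826), *Ccng1*, *Ndufa10*, *BC005537* and *Vim* and against *Srgap2*, *Spidr* and *Airn*, and *Sox3* with *Skp1a* (0.0976), *Tpt1*, *Dynll1*, *Basp1* and *Set* and against *Zeb1*, *BC005561* and *Lrrc7*.

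Over the 4 lines, likeness was the distance between centred log2 levels, among 13987 genes listed in at least 3 tables. *Sox3* and *Sox2* were nearest to each other (distance 0.478). *Fam181b*, *Lrrc4b*, *Pou3f2* and *Ncan* followed for *Sox2*, and *Lrrc4b*, *Ildr2*, *Ncan* and *Pou3f2* for *Sox3*. *Sox21* was nearest to *Fhl1* (0.490), *Btbd17*, *B3gnt5*, *Pou3f3* and *Lrrn1*. *Pou3f2* had 1.27, 0.355 and 1.38 reads per 10000 in XN1, KN1 and CN4 and was not listed in XN4. With 4 points, 1 of which is XN4 near zero, such a pattern describes the lines and no more, and *Sox1*, listed in 2 tables, was not compared.

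Of 14 other Sox genes, 9 were listed in XN4, some at levels far above those of *Sox2* and *Sox21* there. *Sox4*, a SoxC gene, had 3.83 reads per 10000 in XN4 and 5.45, 4.65 and 10.9 in XN1, KN1 and CN4, and *Sox9*, a SoxE gene of glial and cartilage progenitors, had 1.69, 5.26, 1.71 and 3.55. *Sox11*, a SoxC gene of immature neurons, was low in XN4 (0.197) and had 3.90 in XN1, 5.25 in KN1 and 7.06 in CN4. *Sox6*, a SoxD gene, was highest in KN1, at 7.60 against 0.0438 in XN4, 2.03 in XN1 and 1.82 in CN4. Of 8 other Sox genes tested against XN4, 4, 4 and 6 were called higher in XN1, KN1 and CN4 and none lower, where 13.8%, 21.7% and 15.0% of all genes were called higher and 17.5%, 22.2% and 18.1% lower, with median log2 ratios of 1.08, 1.02 and 1.35, against medians over all genes tested of -0.12, -0.06 and -0.03. *Sox14*, the other SoxB2 gene, was listed in none of the normalized tables.

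Of the factors known as partners of SoxB proteins, 6 of 9 tested were called higher in XN1 than in XN4 and 2 lower, 5 of 7 higher and 1 lower in KN1, and 6 of 10 higher and 0 lower in CN4, beside the same shares of all genes. Some of them, *Pou3f1* and *Pax6* included, passed the filter through the line where they were high, so these counts describe the lines. The POU factor gene *Pou3f3* had 0.0802 reads per 10000 in XN4 and 2.73, 0.988 and 3.32 in XN1, KN1 and CN4, which is the order of the lines seen for *Sox2*. *Pou3f1* departed from it, with 4.64 in XN1 against 0.450 in KN1 and 0.0641 in CN4. *Pax6*, which codes for a partner of Sox2 protein in the eye, had 0.457, 0.448 and 0.459 in XN1, KN1 and CN4 and 0.00409 in XN4. Its level was thus alike in 3 lines whose *Sox2* levels were not.

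Of 12 genes known as SoxB targets, 8 were tested against XN4, and 5 were called higher in each of the other lines, with 2 lower in XN1 and 1 lower in KN1 and in CN4, where 13.8% (XN1), 21.7% (KN1) and 15.0% (CN4) of all genes were called higher and 17.5%, 22.2% and 18.1% lower. *Nes*, the intermediate filament gene with a SoxB-bound enhancer, had 0.254 reads per 10000 in XN4 and 3.72, 6.55 and 5.14 in XN1, KN1 and CN4. *Fabp7*, the radial glial fatty acid binding protein gene, was not listed in XN4 and had 11.4 in XN1, 3.86 in KN1 and 41.2 in CN4. *Notch1* had 0.527, 2.08, 2.68 and 4.26 in XN4, XN1, KN1 and CN4, and *Gli3* went the other way, with 2.22, 0.311, 0.878 and 0.682. *Nes* and *Notch1* were higher in KN1 than in XN1, by less than 2-fold, unlike *Sox2*, *Sox3* and *Sox21*. Of 10 targets tested between these 2 lines, 5 were called higher in KN1 and 2 lower, where 23.9% and 23.0% of all genes were.

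A small number of XN4 cells held SoxB reads. In the larger table, 104 of 8741 cells held *Sox2* or *Sox21*, and 7 held both, where 0.508 cells were expected within depth strata (ratio 13.8, 5.54 to 28.4). These 104 cells were deep, with a median of 20640 reads against 12524 in the rest, and 9 of them (8.65%) had a barcode that also occurred in another library, against 3.798% of the rest. *Pou3f3* was captured in 43.3% of the 104 cells and 2.74% of the rest, 9.32 times the number expected within depth strata (6.79 to 12.5), and *Ptprz1* in 13.5% and 2.03% (ratio 4.59, 2.51 to 7.71). *Nes* was at 21.2% and 8.41% (ratio 1.52, 0.952 to 2.30) and *Sox9* at 62.5% and 46.0% (ratio 1.06, 0.820 to 1.35). In the 104 cells *Pou3f3* and *Ptprz1* were thus above the number expected. The intervals of *Nes* and *Sox9* held 1, and that of *Nes* is too wide to tell a difference from none.

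*Fabp7*, at 41.2 reads per 10000 in CN4 and 11.4 in XN1, and *Hes5* had no read in any XN4 cell, the 104 included. *Col3a1* was captured in 98.1% of the 104 and 97.7% of the rest, and *Col1a1* in 15.4% and 23.6%. Of 7498 genes captured in at least 20 of the 104 cells, those with the highest ratios were *Apobec3* (9.41), *Pou3f3*, *Epha5* (6.45), *Emx2* (6.26), *Meis2* (5.56) and *Bhlhe22* (5.16). *Emx2*, *Meis2* and *Bhlhe22* code for transcription factors known from the embryonic forebrain among other tissues. These genes were chosen after their values were seen. The ratios were taken within depth strata (13.8 for *Sox2* with *Sox21* in XN4, and 20.1 without strata), while the percentages include depth. Doublets were not called, and the part that shared barcodes had in these values was not tested.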

How the data were processed

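Libraries were made for each NSC line with a BD Rhapsody WTA kit and sequenced as paired reads of 150 bases. The authors ran the BD Rhapsody WTA pipeline (1.12.1) against GRCm38 with GENCODE M19 and deposited counts of reads per gene and cell, introns included, for XN4, XN1 and CN4. The authors also deposited normalized tables of all 4 lines, whose values are the natural log of 1 plus the reads per 10000 of a cell, made with Seurat 4.3.0 without ribosomal protein and mitochondrial genes. The pipeline settings for KN1 were not given in the sources used here. Reads were recovered from the normalized values, and 100% were whole within 0.01.

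Capture was at least 1 read, and each share had an exact (Clopper-Pearson) 95% interval. Ratios of levels covered genes captured in at least 1% of the cells of either line, and named genes followed the lists, the 5 highest and 3 lowest correlations and the 5 nearest genes over lines, of which a few are not reported here. Pairs were compared in 20 strata of total reads. With 1 library per line no test between lines was made. No doublet caller was run. The scripts (Python 3.11.15, numpy 2.4.6, scipy 1.17.1, pandas 2.3.3) were tested on simulated data. The members and lists were chosen with earlier results of these data known.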

Additional observations from a re-analysis of the deposited data

How the results depend on the processing

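Each line was 1 library, so every interval covers counting error alone, and the low complexity of KN1 and the counting of reads in place of molecular identifiers limit the cell fractions. No paired analysis was possible because each line had 1 library, so there were no pairs to block on. Of 16 ratios between lines, 14 were at or past 2-fold, where 17.6% (CN4 against XN1) to 46.9% (KN1 against XN1) of all genes were, in either direction. At 4-fold 9 were past, and the share of all genes was not taken there. Several had passed the capture filter through the line where they were high, so these counts describe the lines. On the tables of all reads, chosen after seeing the data, 8 of 11 were past 2-fold, where 19.2% to 36.1% of all genes were. Those 11 are another set, without KN1 and with *Sox1* and *Sox3* against XN4, and the CN4 to XN1 ratios of *Sox3* and *Sox21* fell just under 2-fold there. The ratio of observed to expected cells summed over the pairs, which pools pairs on either side of 1 and is carried mostly by CN4, was 1.017 and became 1.06 with no strata and 1.037 when capture needed at least 2 reads. Of 13 comparisons by G2-M reads, 5 had intervals that did not overlap, where 10.3% (CN4) to 23.6% (KN1) of all genes were higher. With the S-phase list 3 were apart, where 11.0% (CN4) to 14.0% (KN1) of all genes were higher among XN1, KN1 and CN4. By that list the difference of *Sox21* in CN4 turned to -3.86 percentage points and that of *Sox2* in XN1, 0.490, to -6.37. Without thinning, where depth differs between the cells compared, 11 were apart, and 3 were when at least 1 G2-M gene sufficed. The share of all genes was not taken at either of these settings, so their counts are no measure of the family. Of 45 genes listed as most alike, 19 remained with a Pearson correlation of the natural log values. The causes were not tested except as stated. Over the values of single genes and pairs under the alternatives, 220 moved by less than their counting error and 102 by more, and 1 difference with intervals apart (*Sox21* in CN4) turned in direction.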
